A study of Mus musculus with 12 samples.

Results

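The genes described here are 10 members of the fibroblast growth factor (FGF) pathway: the receptors Fgfr1, Fgfr2, Fgfr3 and Fgfr4, the ligands Fgf7 and Fgf10, and the feedback genes Spry1, Spry2, Spry4 and Dusp6. They were chosen by symbol, all 10 were found in both deposited tables, and they are 10 of 23337 listed genes. RNA was measured in peeled urothelium, the epithelial lining of the urinary tract, of mice labelled Stag2-WT or Stag2-KO. Stag2 encodes 1 of the interchangeable STAG subunits of cohesin, which folds chromatin into loops and holds sister chromatids together. All 4 groups, WT included, were fed TMX, taken to be tamoxifen, in the diet for 1 week. Libraries were made from WT and KO mice 1 week after treatment began, and from WT and KO mice 1 month after it began, with 3 libraries in each group. The labels used here do not name the strain, the age, the sex, or the Cre line and its promoter.

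FGF receptors are receptor tyrosine kinases that relay a signal through the RAS and ERK kinases once a ligand and heparan sulphate bind them. Fgfr3 is activated by mutation in many bladder tumours, which is why its level in urothelium is of interest. Fgf7 and Fgf10 are made by mesenchymal cells and act on the epithelial splice form of Fgfr2, which makes them classic signals from stroma to epithelium. Sprouty proteins (Spry1, Spry2, Spry4) and the ERK phosphatase Dusp6 are switched on by ERK signalling and dampen it, so their transcripts are commonly read as a trace of pathway output.

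Total counts per library ran from 5580961 to 9497088, and levels are given as CPM, the count of a gene per mega-count of its library, scaled by the trimmed mean of M values (TMM) over the 12 libraries. The libraries were read from the 3′ ends of transcripts, so the splice forms of the receptors cannot be told apart. Stag2 was examined first as a check of the labels. It had 118, 106 and 151 CPM in WT and 72.2, 59.5 and 67.1 CPM in KO at 1 week, and 63.4, 64.6 and 45.1 CPM in WT and 39.4, 37.5 and 19.3 CPM in KO at 1 month. The genotypes did not overlap at either time, although the adjusted p was 0.198 at 1 week and 0.0507 at 1 month (edgeR, as for all adjusted p below unless another tool is named). Transcripts that differ between the sexes matter for every comparison: all KO libraries of 1 week had at least 6392 counts of Xist, the RNA of the inactive X chromosome, and the WT libraries of that time at most 13, so genotype and sex cannot be told apart at 1 week. At 1 month Xist had 7764 counts in KO replicate 3 and 11 in WT replicate 3, and Ddx3y, a gene of the Y chromosome, had 0 and 596, so genotype and sex cannot be told apart within batch 3 either. The other 4 libraries of 1 month had at most 28 counts of Xist and at least 475 of Ddx3y. KO replicate 3 of 1 week also stood apart from its own group, with a chi-square per degree of freedom of 138 and 198 against the other KO libraries, where the remaining pairs of replicates at 1 week had 9.1 to 59.6. Batch 1 of the labels holds all libraries of 1 week, batch 2 replicates 1 and 2 of both genotypes at 1 month, and batch 3 replicate 3 of both, so time and batch cannot be told apart.

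Urothelial identity was checked with 18 markers, all of which were detected in every library. Their summed level was 12987 to 15896 CPM in WT and 11246 to 14692 CPM in KO at 1 week, and 16818 to 33447 CPM in WT and 12337 to 18528 CPM in KO at 1 month. Fibroblast markers were also present in every library, so the peeled tissue was not purely epithelial. In such bulk tissue, fewer cells of a type and less RNA per cell cannot be told apart.

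The windows just upstream of the start sites are shown for the 4 members on which the results turn: Fgfr3, Fgfr2, Fgf7 and Dusp6. Sequences are from RefSeq on GRCm38.p6, the assembly also called mm10, which the submitters' processing notes name. Each runs 5′ to 3′ on the strand of the gene and ends at the base before the annotated start. Capitals mark a GC box (GGGCGG) or a CCAAT box (CCAAT) on either strand, and a window without capitals holds neither. The table lists 2 starts for Fgfr3, of which the upstream one is shown.

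Fgfr3, chr5:33721474-33721723, plus strand: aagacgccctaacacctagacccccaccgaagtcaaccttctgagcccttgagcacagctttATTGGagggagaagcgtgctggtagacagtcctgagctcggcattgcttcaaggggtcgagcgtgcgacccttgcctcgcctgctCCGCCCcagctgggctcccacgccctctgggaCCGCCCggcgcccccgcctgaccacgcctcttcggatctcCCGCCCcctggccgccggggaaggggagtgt
Fgfr2, chr7:130266809-130267058, minus strand: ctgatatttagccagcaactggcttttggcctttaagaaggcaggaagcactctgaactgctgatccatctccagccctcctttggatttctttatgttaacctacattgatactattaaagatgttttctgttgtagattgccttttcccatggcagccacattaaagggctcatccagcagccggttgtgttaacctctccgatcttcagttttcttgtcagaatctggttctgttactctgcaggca
Fgf7, chr2:126034408-126034657, plus strand: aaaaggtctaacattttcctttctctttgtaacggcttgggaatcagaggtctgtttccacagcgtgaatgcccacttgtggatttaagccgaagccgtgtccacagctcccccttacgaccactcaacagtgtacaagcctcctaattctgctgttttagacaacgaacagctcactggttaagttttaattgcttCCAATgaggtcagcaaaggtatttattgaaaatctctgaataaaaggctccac
Dusp6, chr10:99262981-99263230, plus strand: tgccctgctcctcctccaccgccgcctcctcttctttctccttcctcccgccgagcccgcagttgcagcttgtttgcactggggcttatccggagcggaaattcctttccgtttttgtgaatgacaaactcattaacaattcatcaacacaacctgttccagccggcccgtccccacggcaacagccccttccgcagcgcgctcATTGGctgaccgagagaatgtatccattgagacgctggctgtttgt

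The GC content of these windows was 66.8% for Fgfr3, 44.0% for Fgfr2, 43.6% for Fgf7 and 56.4% for Dusp6, with a median of 52.4% over all 32851 windows of 250 bases in the table. The GC box was found in Fgfr3 among the 4 and in 32.7% of all windows, and the CCAAT box in Fgfr3, Fgf7 and Dusp6 and in 33.8% of all windows. The study's title names DREAM, a repressor of the cell cycle, and 2 motifs linked with its binding were searched on both strands, as were the others. Neither the CHR element (TTTGAA, in 16% of all windows) nor the E2F site written as GGCGGGAA (in 1.9%) was in any of the 9 windows found for 8 of the 10 members. The ETS site CCGGAA, a site of factors that ERK activates, was in the Fgfr4 window and in 12% of all windows. The AP-1 site TGACTCA (4.5% of all windows) and the TATA box TATAAA (12.4%) were in none of the 9. No motif of this search contains another, although their ends can overlap.

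Of the 10 members, 8 passed the filter on low counts at 1 week and 7 at 1 month. Fgfr4 and Fgf10 did not pass at either time, and Spry4 did not pass at 1 month. None passed an adjusted p of 0.05 in KO against WT at 1 week, where 0.0627% of 12754 genes tested passed (0.0157% higher and 0.047% lower in KO), and none at 1 month, where 2.22% of 12139 genes passed (0.997% higher and 1.22% lower). The count at an unadjusted p under 0.05 was 3 of 8 members at 1 week (15.5% of all genes) and 1 of 7 at 1 month (21.5% of all genes). DESeq2 called 1 member at each time, Fgf7 at 1 week, where it called 7.52% of the genes to which it gave an adjusted p, and Fgfr2 at 1 month, where it called 6.98%. A member that did not pass is not shown to be the same in both genotypes. At 1 week 4 of the 8 had a positive and 4 a negative log2 change (median -0.10, with 0.02 over all genes tested). Of all 12754 genes 6565 were positive at that time. At 1 month 6 of 7 members were positive (median 0.58, with -0.01 over all genes tested), with 6023 of 12139 genes. The filter favoured a positive sign for Fgf7 and Spry4 at 1 week and for Dusp6 and Spry1 at 1 month. They passed it through their KO libraries.

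Non-overlap of the genotypes was common in these data. It held for 3 of 8 members at 1 week (37.5%) with 26.6% of all genes (13.2% with KO above and 13.4% with KO below WT), and for 0 of 7 members at 1 month with 13.1% of all genes (6.42% above and 6.71% below).

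**Figure D1:**
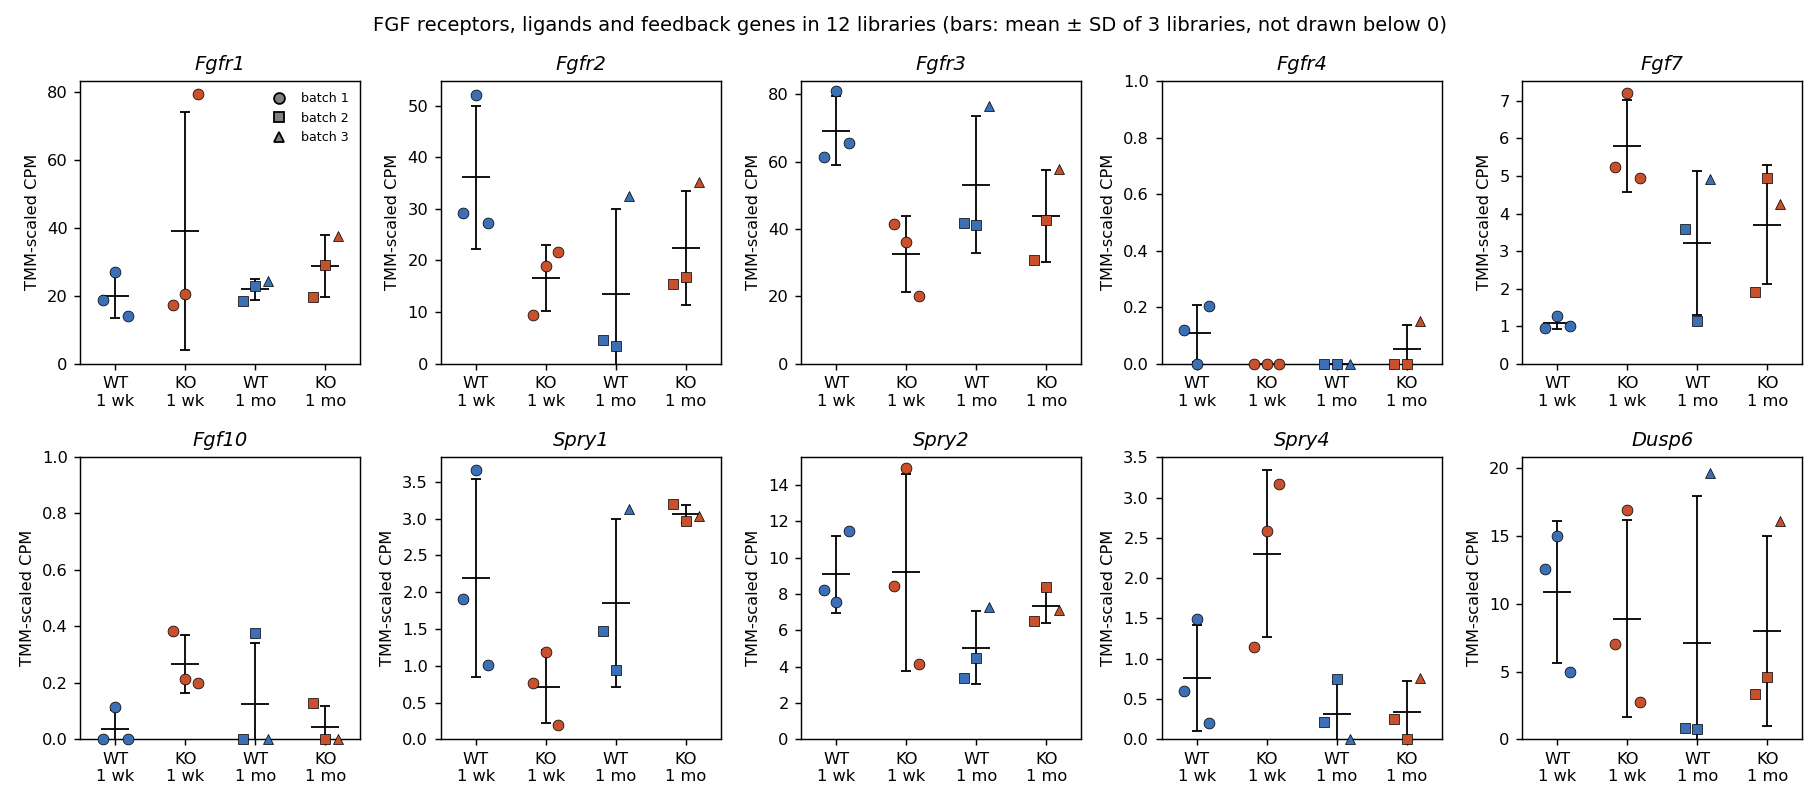
TMM-scaled CPM of the 10 members in each of 12 libraries, by genotype (WT, KO) and time (1 week, 1 month); symbols give the batch and bars the mean ± SD of 3 libraries, not drawn below 0. At 1 week Fgfr3 and Fgfr2 lie lower and Fgf7 higher in every KO library than in every WT library, and at 1 month no tested member separates the genotypes.

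Fgfr3 (chromosome 5, 33721724 to 33737068) was lower in each KO library of 1 week than in any WT library. It had 61.3, 80.9 and 65.5 CPM in WT and 41.6, 36.2 and 19.98 CPM in KO, from 516, 706 and 645 counts and 325, 336 and 101 counts. The lowest value belongs to KO replicate 3, the library that stood apart. The log2 change was -1.06 (SE 0.35, adjusted p 0.220), and without that library it was -0.85 (adjusted p 0.0809, 0.0593 to 0.625 over all alternatives), so the difference kept its direction and did not pass. At 1 month the genotypes overlapped: Fgfr3 had 41.9, 41.1 and 76.6 CPM in WT and 30.7, 42.6 and 58.0 CPM in KO. Both libraries of batch 3 exceeded both WT libraries of batch 2. The log2 change with batch as a covariate was -0.25 (SE 0.22, adjusted p 0.526), with -0.20 within batch 2 and -0.40 within batch 3. Ordered by mean, the groups ran from WT at 1 week (69.2 ± 10.3 CPM, SD, n = 3) over WT at 1 month (53.2 ± 20.3) and KO at 1 month (43.8 ± 13.7) to KO at 1 week (32.6 ± 11.3), and the ranges of each group and the next overlapped.

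The genes whose levels followed Fgfr3 most closely were sought among 10411 genes, by Pearson's correlation of log2 CPM over the 12 libraries after each batch was centred on its own mean. They were D330045A20Rik (r = 0.983), Lpar3 (0.969), Lrrc26 (0.964), Glcci1 (0.960) and Aftph (0.953). Lpar3 is a receptor for lysophosphatidic acid. These points share their libraries and the spread set by KO replicate 3 of 1 week, and without that library the same 5 correlations were 0.958, 0.921, 0.945, 0.931 and 0.885. Fgf7 had too low a mean level for the same search.

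Fgfr2 (chromosome 7, 130162451 to 130266808), the receptor for Fgf7 and Fgf10 in epithelia, had opposite signs at the 2 times. At 1 week it had 29.1, 52.0 and 27.2 CPM in WT and 9.35, 18.8 and 21.6 CPM in KO. Every KO library was below every WT library, with a log2 change of -1.10 (SE 0.43, adjusted p 0.283). At 1 month it had 4.63, 3.38 and 32.5 CPM in WT and 15.3, 16.8 and 35.2 CPM in KO, which is a log2 change of 1.26 (SE 0.38, adjusted p 0.0942).

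The pattern of 1 month lay within batch 2. There the WT libraries held 22 and 18 counts of Fgfr2 and the KO libraries 120 and 102, a log2 difference of 1.95, while the batch 3 pair, which also differs in sex, held 218 and 232 counts, a difference of 0.11. With batch 2 alone, or without replicate 3 of either genotype, the log2 change was 2.03 to 2.04 and passed. The adjusted p was 0.00297 with batch 2 alone, and 0.00171 and 0.00182 without the WT or the KO library (0.00104 to 0.798 over all alternatives). These settings are the same comparison and not separate support. The batch term takes up a lone batch 3 library, so each compares KO with WT within batch 2. Fgfr2 also passed with library size alone as scaling (adjusted p 0.0448), without a filter on low counts (0.00104) and under DESeq2 (0.0224).

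Whether the KO effect on Fgfr2 differed between the times was tested as an interaction. The difference was 2.44 on the log2 scale (SE 0.65, adjusted p 0.111), the smallest adjusted p among the 8 members tested, and 0 of 13122 genes passed by edgeR (0%), while 19.9% had an unadjusted p under 0.05. DESeq2 called 917 genes (7%), Fgfr2 among them with an adjusted p of 0.0131, and edgeR without KO replicate 3 of 1 week gave 0.0472 for Fgfr2 (0.0131 to 0.309 over all alternatives).

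Fgfr1 (chromosome 8, 25518759 to 25575718), a receptor common in mesenchymal cells, differed by 1 library. It had 18.7, 26.9 and 14.1 CPM in WT at 1 week and 17.2, 20.3 and 79.3 CPM in KO. The high value is again KO replicate 3. The log2 change of 0.98 (SE 0.62, adjusted p 0.471) became -0.10 (adjusted p 0.896, 0.283 to 0.896 over all alternatives) without it. At 1 month it had 18.3, 22.9 and 24.3 CPM in WT and 19.6, 29.1 and 37.6 CPM in KO, and the log2 change was 0.38 (SE 0.25, adjusted p 0.402).

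Fgfr4 was barely detected. It had 4 counts over all 12 libraries, 3 of them in WT at 1 week and 1 in KO replicate 3 of 1 month, and 0 counts in 9 libraries. A count of 0 allows up to 3 counts, which corresponds to 0.305 to 0.632 CPM depending on the library (counting error only), so no difference could be seen at this depth.

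**Figure D2:**
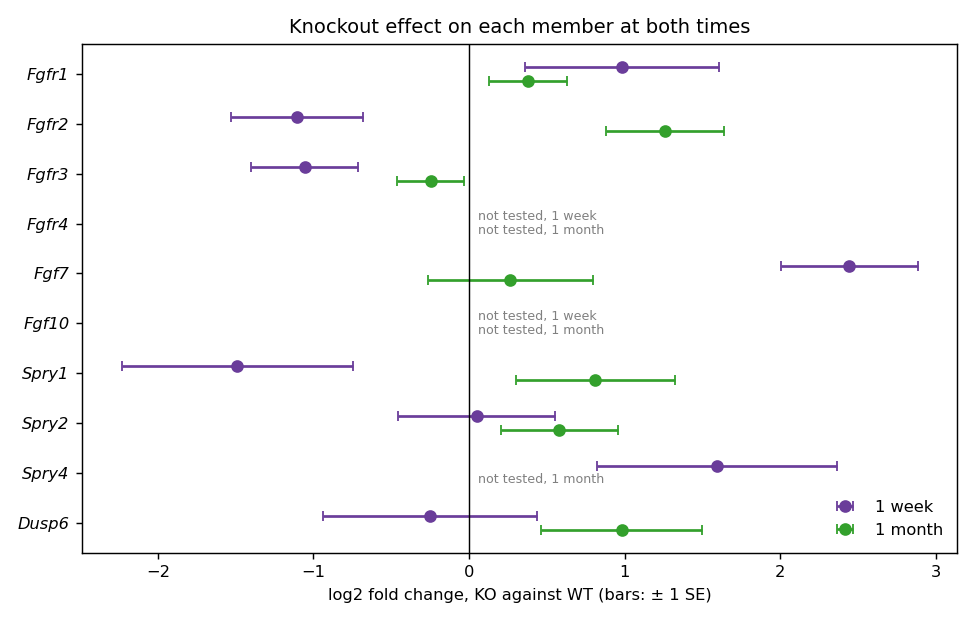
log2 change of KO against WT for each member at 1 week (purple) and at 1 month (green, with batch as a covariate), with bars of ± 1 SE; members that did not pass the filter on low counts are marked as not tested. Fgf7 at 2.44 is the highest value at 1 week, Fgfr2 lies at -1.10 and 1.26, and no value passed the adjusted threshold.

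Of the 2 ligands among the members, only Fgf7 (chromosome 2, 126034658 to 126091185), also known as keratinocyte growth factor, could be tested, and its genotypes did not overlap at 1 week. WT libraries held 8, 11 and 10 counts of it, KO libraries 41, 67 and 25. In CPM these were 0.951, 1.26 and 1.02 in WT and 5.25, 7.21 and 4.95 in KO, so every KO library was far above every WT library. The log2 change was 2.44 (SE 0.44) with an adjusted p of 0.0941. It passed without KO replicate 3 (2.50, adjusted p 0.0352), in 1 fit of all 12 libraries (2.42, adjusted p 0.0315) and under DESeq2 (2.46, adjusted p 0.000118), with 0.000118 to 0.507 over all alternatives. Fgf7 passed the filter on low counts at 1 week through its KO libraries, since only 1 WT library reached the limit of 1.21 CPM. Another annotated gene, Fam227b, overlaps Fgf7, and the counting is described as strand-aware. Among the other members, Gm34921 overlaps Dusp6, and Gm31288 and Gm16159 overlap Fgfr1.

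At 1 month Fgf7 did not separate the genotypes. It had 3.58, 1.13 and 4.92 CPM in WT and 1.92, 4.94 and 4.25 CPM in KO, which is a log2 change of 0.27 (SE 0.53, adjusted p 0.804), with 0.54 within batch 2 and -0.20 within batch 3. Without WT replicate 2 the value was -0.13 and without KO replicate 2 it was -0.24. The difference between the times was -2.15 (SE 0.75, adjusted p 0.172). By mean the order was KO at 1 week (5.80 ± 1.23 CPM, SD, n = 3), KO at 1 month (3.701 ± 1.58), WT at 1 month (3.21 ± 1.92) and WT at 1 week (1.08 ± 0.16), where the ranges of KO at 1 week and KO at 1 month just missed each other (4.95 and 4.94 CPM) and those of the other neighbours overlapped.

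Markers of fibroblasts, the cells known to make Fgf7, had the same sign at 1 week. All 10 markers of the list had positive log2 changes (median 1.27, with 0.02 over all genes tested), none passed, and none was at 0 in any library. Their summed level was 3544 to 5754 CPM in WT and 5208 to 10338 CPM in KO, and their part in the Fgf7 difference was not tested. Pdgfra, a receptor of fibroblasts picked after its values were seen, had 46.5, 45.8 and 37.1 CPM in WT and 129, 154 and 693 CPM in KO. At 1 month the summed level was 9751 to 14485 CPM in WT and 8163 to 10042 CPM in KO, above the WT libraries of 1 week throughout. Of the 10 markers 5 were positive and 5 negative at 1 month (median 0.03), and 1 was called (higher in KO). Pdgfra then had 25.5 to 47.0 CPM in WT and 26.1 to 56.0 CPM in KO. Most members of the other stromal and immune lists also had positive values at 1 week: 5 of 5 endothelial markers, 5 of 6 smooth muscle markers and 5 of 6 immune markers tested had positive values. Their summed levels at 1 week were 156 to 176 CPM (WT) and 251 to 502 CPM (KO) for endothelium, 108 to 284 and 333 to 1065 CPM for smooth muscle, and 138 to 225 and 235 to 455 CPM for immune markers, of which Cd79a or Cd68 was at 0 in 3 libraries of that time. Of 10 genes of dividing cells 7 were tested at 1 week, and all 7 had positive values. The summed level of the 10 was 24.6 to 26.9 CPM in WT and 127 to 833 CPM in KO. The filter on low counts favoured a positive sign for Ccnb1 (2, 5 and 5 counts in WT), Cdk1 (1, 2 and 2) and Plk1 (11, 9 and 3). These genes passed it through their KO libraries.

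**Figure D3:**
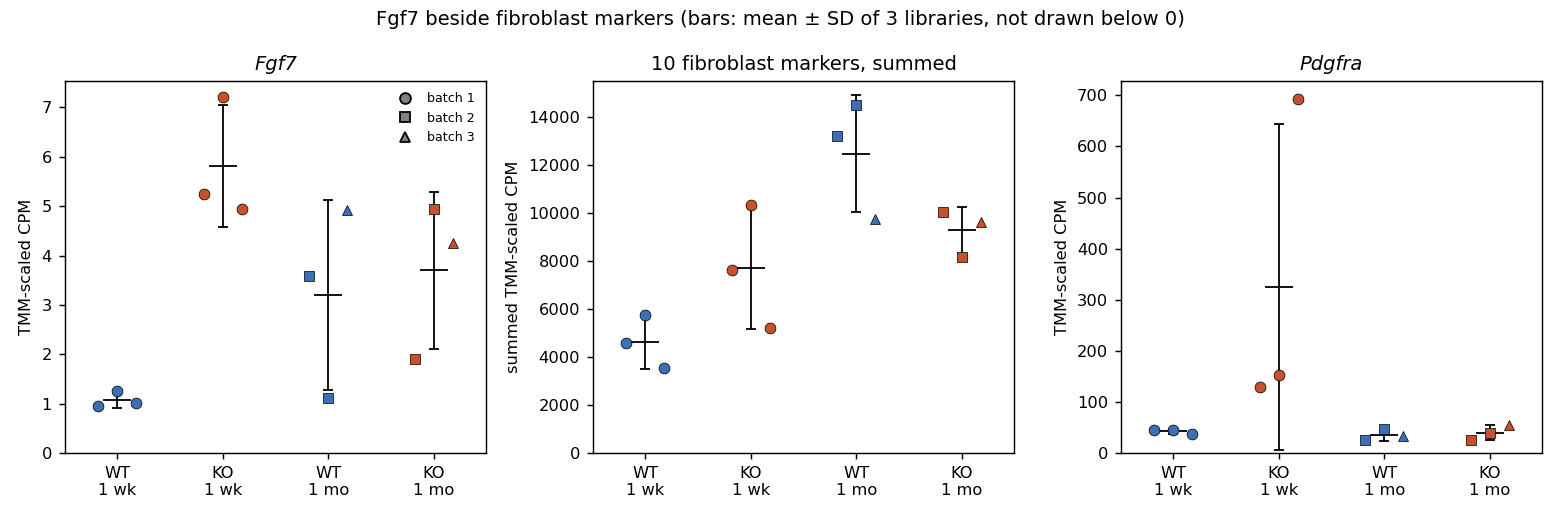
Fgf7 (left), the sum of 10 fibroblast markers (middle) and Pdgfra (right) in TMM-scaled CPM for each of 12 libraries by group, with bars of mean ± SD of 3 libraries. At 1 week all KO libraries lie above all WT libraries for Fgf7 and Pdgfra, and KO replicate 3 overlaps WT for the sum; at 1 month the marker sum is high in all libraries and Fgf7 is spread from 1.13 to 4.94 CPM.

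Fgf10, the other mesenchymal ligand, had 10 counts over the 12 libraries and was at 0 in 6 of them. The KO libraries of 1 week had 3, 2 and 1 counts and the WT libraries of that time 0, 1 and 0. All values lie at or under the limit of 3 counts. Fgf10 was not tested because no library reached the limit of the filter on low counts at either time.

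Among the feedback genes, none was called at either time, and the genotypes overlapped for each of the 4 at 1 week. Dusp6 (chromosome 10, 99263231 to 99267489), the phosphatase that inactivates ERK, had 12.6, 15.0 and 4.97 CPM in WT and 7.04, 16.9 and 2.77 CPM in KO at 1 week. The log2 change was -0.25 (SE 0.69, adjusted p 0.875), and its sign turned without WT replicate 2 (0.04) or KO replicate 3 (0.14). At 1 month Dusp6 had 0.842, 0.751 and 19.7 CPM in WT and 3.33, 4.61 and 16.1 CPM in KO. Behind these values stood 4, 4 and 132 counts for WT, 26, 28 and 106 for KO. The log2 change was 0.98 (SE 0.52, adjusted p 0.295). Within batch 2 the log2 difference was 1.97 and within batch 3 it was -0.29. In the fit of batch 2 alone it was 2.32 and passed (adjusted p 0.0273). Dusp6 also passed without replicate 3 of WT (adjusted p 0.0144) or KO (0.0130), which is again the comparison within batch 2. Over all alternatives the adjusted p ran from 0.0130 to 0.980. Dusp6 passed the filter on low counts at 1 month through its KO libraries, since only 1 WT library reached the limit of 1.68 CPM, so the values from batch 2 compare KO with libraries of 4 counts each.

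Spry1 (chromosome 3, 37639947 to 37644599) had low counts throughout. At 1 week WT libraries held 16, 32 and 10 counts and KO libraries 6, 11 and 1, with a log2 change of -1.49 (SE 0.74, adjusted p 0.384) and overlapping CPM. At 1 month WT libraries held 7, 5 and 21 counts and KO libraries 25, 18 and 20, or 1.47, 0.939 and 3.13 CPM against 3.20, 2.96 and 3.03 CPM. The KO libraries were close to each other and to WT replicate 3, and the WT libraries of batch 2 were lower. The log2 change was 0.81 (SE 0.51, adjusted p 0.382), with 1.20 within batch 2 and -0.04 within batch 3, and here too only 1 WT library reached the limit of the filter, against 3 KO libraries.

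Spry2 (chromosome 14, 105891947 to 105896819) had 8.20, 7.56 and 11.5 CPM in WT and 8.45, 15.0 and 4.15 CPM in KO at 1 week. The WT libraries lay within the range of the KO libraries, and the log2 change was 0.05 (SE 0.50, adjusted p 0.973). At 1 month it had 3.37, 4.51 and 7.30 CPM in WT and 6.52, 8.39 and 7.13 CPM in KO, which is a log2 change of 0.58 (SE 0.38, adjusted p 0.395), with 0.88 within batch 2 and -0.03 within batch 3. Spry4, on chromosome 18, held 5, 13 and 2 counts for WT, 9, 24 and 16 for KO, at 1 week (log2 change 1.59, SE 0.77, adjusted p 0.371, with 1 WT and 3 KO libraries at the limit of the filter), and at most 5 counts in any library of 1 month.

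Fgfr2, Dusp6, Spry1 and Spry2 thus shared a layout at 1 month: the WT libraries of batch 2 were the 2 lowest of the 6. This was noticed in the values of these members, so its count of 4 of the 7 members tested gives no support. Dusp6 and Spry1 were also tested at 1 month only through their KO libraries. The layout is common in these data and held for 22.1% of all genes tested at 1 month. Krt5 and Trp63, markers of basal urothelium, the layer next to the stroma, had the same layout and were picked after their values were seen. Cdh1 and Epcam of the same urothelial list had it too, so the layout was not limited to these basal markers. Krt5, a basal keratin, had 119 and 215 CPM in the WT libraries and 627 and 635 CPM in the KO libraries of batch 2, and 492 and 672 CPM in WT and KO of batch 3. Trp63, a transcription factor of basal cells, had 15.8 and 22.5 CPM, 37.1 and 46.4 CPM, and 33.7 and 31.0 CPM in the same order, so KO replicate 3 lay close to the WT library of its batch. Over the whole urothelial list 13 of 18 markers had negative values at 1 month, with 1 called, and the 6 immune markers tested were all negative with 3 called. Immune markers summed to 493 to 1114 CPM in WT and 217 to 324 CPM in KO at that time. The part of these markers in the layout was not tested.

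**Figure D4:**
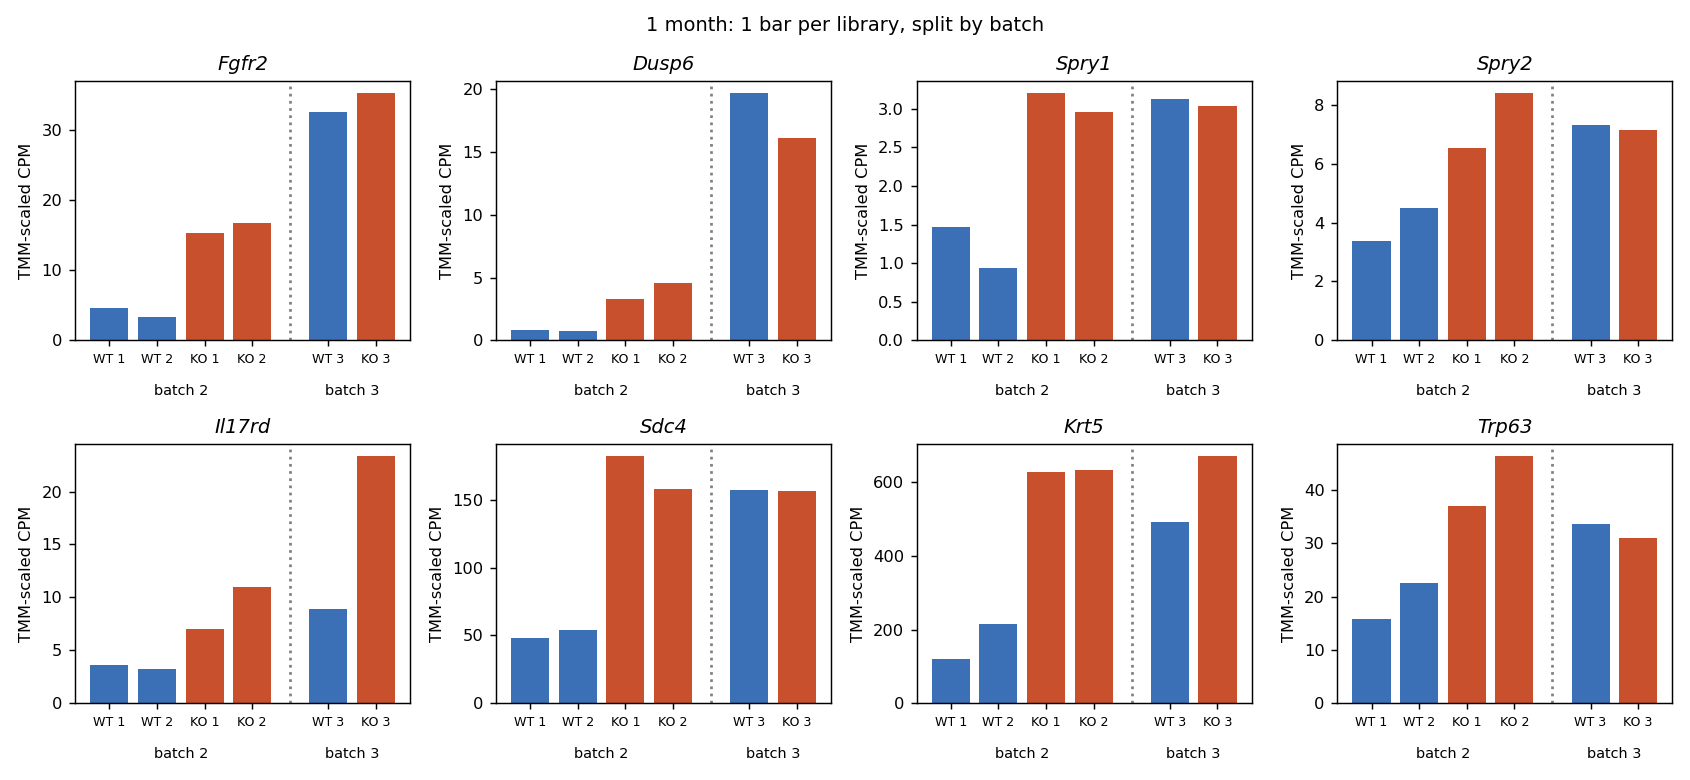
TMM-scaled CPM in the 6 libraries of 1 month, 1 bar per library (blue WT, orange KO), with batch 2 left and batch 3 right of the dotted line. Fgfr2, Dusp6, Spry1, Spry2, Il17rd, Sdc4, Krt5 and Trp63 are lowest in WT replicates 1 and 2. Within batch 3 the genotypes of Fgfr2 (32.5 and 35.2 CPM) are close while Il17rd is higher in KO (23.4 and 8.94 CPM). The batch 3 pair also differs in sex.

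A wider list of 67 FGF pathway genes gave the context. Of these, 41 were tested at 1 week, 25 with positive and 16 with negative values (median 0.07, with 0.02 over all genes), and none was called by edgeR, with 7 of the 41 at an unadjusted p under 0.05 (15.5% of all genes). At 1 month 36 were tested, 19 positive and 17 negative (median 0.05, with -0.01 over all genes), with 10 of the 36 at an unadjusted p under 0.05 (21.5% of all genes), and 1 of the 36 was called (2.22% of all genes). This gene was Il17rd, also known as Sef, a membrane protein that restrains FGF signalling. Il17rd had 3.58, 3.19 and 8.94 CPM in WT and 7.04, 11.02 and 23.4 CPM in KO at 1 month. The groups overlapped across batches, and the WT libraries of batch 2 were the 2 lowest of the 6, the layout of Fgfr2. Within batch 2 each KO library was above each WT library, with a log2 difference of 1.31. In batch 3 the difference was 1.36, from 1 library of each genotype, and this pair also differs in sex. With batch as a covariate Il17rd rose by 1.40 on the log2 scale (SE 0.33, adjusted p 0.0436). The call was lost without any 1 of the 4 libraries of batch 2 (adjusted p 0.0588 to 0.176), without the batch term (1.38, adjusted p 0.652) and in 1 fit of all 12 libraries (1.40, adjusted p 0.391). At 1 week Il17rd had 5.71, 7.68 and 3.96 CPM in WT and 4.48, 8.29 and 4.15 CPM in KO, which is a log2 change of -0.00 (SE 0.46, adjusted p 0.998).

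Of 20 further FGF genes listed under the role of ligand, 2 were tested at 1 week and 1 at 1 month. Fgf1, a ligand that binds all FGF receptors, had 37.2, 39.1 and 62.8 CPM in WT and 32.7, 20.3 and 44.3 CPM in KO at 1 week. It had 72.0, 55.8 and 27.1 CPM in WT and 42.0, 46.9 and 36.0 CPM in KO at 1 month, and the adjusted p was 0.556 and 0.634. Fgf9, a ligand often made by epithelia and named here after its values were seen, held 25, 24 and 32 counts for WT, 0, 0 and 3 for KO, at 1 week. At 1 month WT libraries held 7, 13 and 22 counts and KO libraries 10, 4 and 7, or 1.47, 2.44 and 3.28 CPM against 1.28, 0.658 and 1.06 CPM. Its KO libraries were thus below the WT libraries at both times. At 1 week 3 WT libraries and 0 KO libraries reached the limit of the filter, so Fgf9 was tested through the group where it was high, and the adjusted p was 0.149. It did not pass the filter on low counts at 1 month.

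Among co-receptors and binding partners, 7 of 10 were tested at each time and none was called. The syndecan Sdc4, a heparan sulphate carrier, was level at 1 week, with 298, 334 and 262 CPM in WT and 326, 293 and 324 CPM in KO. At 1 month it had 48.2, 53.7 and 157 CPM in WT and 183, 159 and 157 CPM in KO (log2 change 1.17, SE 0.33, adjusted p 0.0826), the layout of Fgfr2. It passed in batch 2 alone and, which is the same comparison, without replicate 3 of either genotype. It also passed with library size alone, without the filter and under DESeq2. The glypican Gpc1 had 7.96, 9.40 and 11.98 CPM in WT and 32.1, 38.1 and 69.4 CPM in KO at 1 week (log2 change 2.27, SE 0.39, adjusted p 0.0934, and 1.82 with 0.0251 without KO replicate 3, 5.05e-05 to 0.507 over all alternatives). At 1 month its sign differed between batches, with -1.19 in batch 2, where it passed in a fit of batch 2 alone (adjusted p 0.0121), and 1.39 in batch 3. Sdc1 had adjusted p of 0.619 and 0.842 at the 2 times. Fgfrl1, a receptor without a kinase domain, and Flrt3, a membrane protein that binds FGF receptors, were named after their values were seen. Fgfrl1 had 13.8, 13.6 and 10.97 CPM in WT and 7.04, 5.71 and 5.74 CPM in KO at 1 week, and 3.79, 7.51 and 10.1 CPM in WT and 11.3, 12.3 and 11.2 CPM in KO at 1 month. The genotypes of Fgfrl1 thus did not overlap at either time, in opposite order, with adjusted p of 0.221 and 0.252. Non-overlap held for 26.6% of all genes at 1 week and 13.1% at 1 month. At 1 month Fgfrl1 also had the layout of Fgfr2. Its log2 difference was 1.10 within batch 2 and 0.14 in the batch 3 pair, which also differs in sex. For Fgfrl1 the difference between the times had an adjusted p of 0.114. At 1 week Fgfrl1 passed under DESeq2 (adjusted p 0.0431, 0.0431 to 0.625 over all alternatives). Flrt3 had 39.6, 43.7 and 53.7 CPM in WT and 27.1, 28.1 and 21.0 CPM in KO at 1 week, and 49.9, 42.4 and 42.8 CPM in WT and 26.2, 31.1 and 21.2 CPM in KO at 1 month. Flrt3 was below WT in all 3 KO libraries of each time (log2 change -0.82 with adjusted p 0.239, and -0.78 with adjusted p 0.0799, and 0.0454 under DESeq2 and 0.0460 without a filter, with up to 0.492 over all alternatives).

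The relay genes between receptor and ERK gave no call, with 11 of 19 tested positive at 1 week (median 0.09) and 9 of 18 at 1 month (median -0.03). Of the relay genes named, Braf had log2 changes of -0.45 and -0.74 (adjusted p 0.533 and 0.0941), Hras1 of 0.80 and -0.80 (0.531 and 0.0882) and Mapk3, which encodes ERK1, of -0.28 and 0.69 (0.892 and 0.102). Mapk3 had 14.4 CPM in KO replicate 3 of 1 week and 179 and 315 CPM in the other KO libraries. Without that library its value at 1 week was 0.23 and that of Hras1 was -0.25. All 3 genes passed at 1 month under DESeq2 and without a filter on low counts.

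Feedback genes and ERK targets beyond the members had 10 of 13 positive values at 1 week (median 0.26) and 5 of 10 at 1 month (median 0.02). Egr1, an immediate early gene induced by ERK and also by tissue handling, was above WT in each KO library at both times. It had 21.6, 18.3 and 12.9 CPM in WT and 43.0, 143 and 865 CPM in KO at 1 week, and 7.37, 18.2 and 9.54 CPM in WT and 27.9, 84.7 and 33.2 CPM in KO at 1 month. The log2 changes were 4.33 (SE 1.06, adjusted p 0.139) and 2.02 (SE 0.46, adjusted p 0.0600), and both passed under DESeq2. Without KO replicate 3, which had the 865 CPM, the value at 1 week was 2.39 (adjusted p 0.0509, 0.000148 to 0.511 over all alternatives). At 1 month the adjusted p over the alternatives ran from 6.32e-11, without a filter on low counts, to 0.536. Phlda1 and Ier3, further targets of ERK, had adjusted p of 0.786 and 0.571 at 1 week and of 0.743 and 0.774 at 1 month. Egr1 was among the 3 genes of highest mean CPM in this role (107 CPM) only through KO replicate 3 of 1 week. Its choice thus rested on a value that also enters its log2 change. Ccnd1, next by mean level (85.4 CPM), had log2 changes of -0.33 and -0.67 (adjusted p 0.713 and 0.120).

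**Figure D5:**
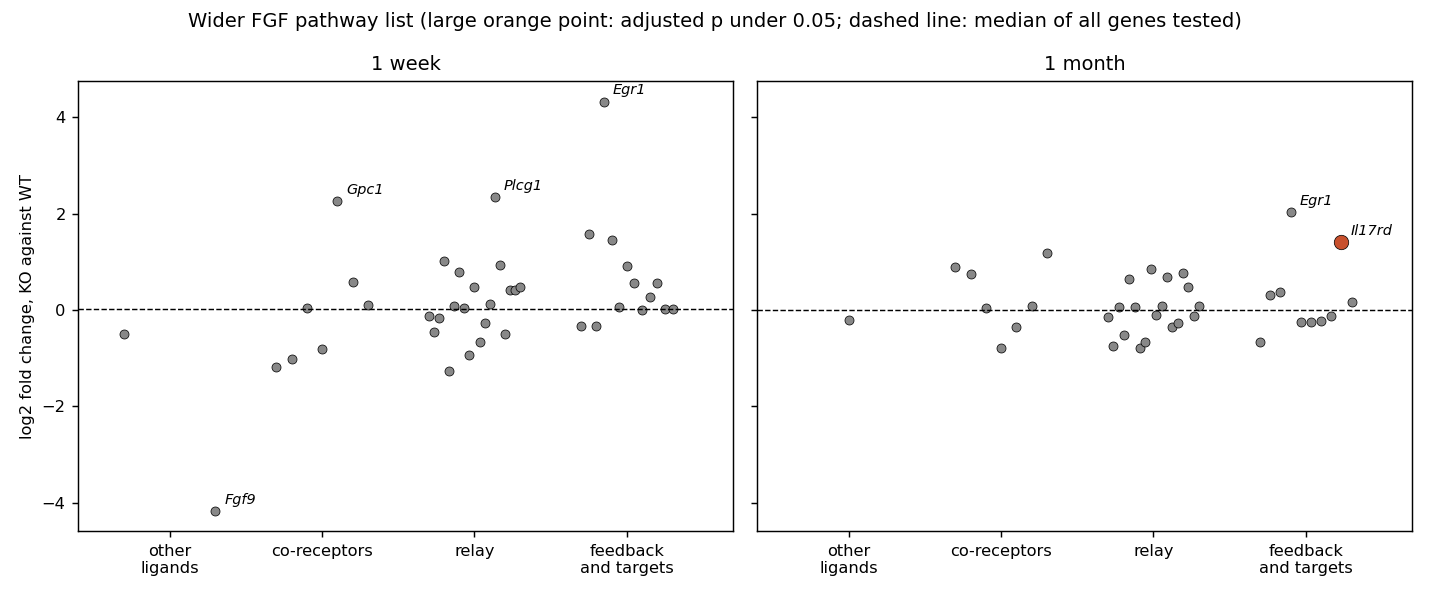
log2 change of KO against WT for the genes of the wider FGF pathway list that were tested, by role, at 1 week (left) and 1 month (right); each point is a gene, a large orange point passed the adjusted threshold, and the dashed line is the median of all genes tested. Il17rd at 1 month is the only point that passed, and Egr1 is the highest point of both panels.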

How the data were processed

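Total RNA of peeled urothelium was sequenced as QuantSeq forward libraries, which are primed at the poly(A) tail and keep the strand, and counted with strand, per the labels' protocols. The authors deposited raw counts per gene, 1 table for each time. The submitters' processing notes list Bowtie, TopHat, HTSeq, DESeq2 and mm10. Versions and the annotation are not given in the sources used here. For WT replicate 3 of 1 month the code in the title is not that of the library name, and its column was matched by library name. Each title has a code of its own, read here as the mouse, and replicates were numbered in accession order. The labels do not state that these are separate animals, so p-values measure the spread between these samples.

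KO was compared with WT with edgeR 4.0.16 (R 4.3.3; quasi-likelihood test, robust, TMM, default filter on low counts, two-sided) in a fit of 6 libraries per time, with batch as a covariate at 1 month, and the difference between times in 1 fit of 12 libraries. P-values were adjusted by Benjamini-Hochberg over all genes tested, with a threshold of 0.05. SE is the absolute log2 fold change over the square root of F. Log2 CPM used a prior count of 2. No replicate pair agreed within sampling noise. The fits were tested on simulated data with 4-fold changes and no batch effect. Those of 1 week and of the difference missed most of these changes and that of 1 month found most. Smaller changes were not simulated. DESeq2 1.42.0, other scaling, filters and designs, and leaving out each library were alternatives. The members and lists were chosen with earlier results of these data known. Named in the text are the members, Stag2, every called gene of the wider list and its 3 genes of highest mean CPM per role among those tested at both times, where ligands had only Fgf1. Fgf9, Fgfrl1, Flrt3, Ccnd1, Pdgfra, Krt5, Trp63, Cdh1 and Epcam were added after their values were seen. Likeness to Fgfr3 was sought among genes of at least 5 CPM on average, and Fgf7 lay below that level.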

Additional observations from a re-analysis of the deposited data

How the results depend on the processing

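At 1 week 8 of 12754 genes tested were called (2 higher), and 62 of 18900 without a filter on low counts (47 higher). Under DESeq2 957 of 12726 were called (687 higher and 270 lower). In 1 fit of all 12 libraries 553 of 13122 were called (404 higher and 149 lower), and with library size alone 8 of 12754 (3 higher). Leaving out 1 library gave 0 to 320. At 1 month 269 of 12139 were called (121 higher and 148 lower), and 561 of 12139 with library size alone (456 higher and 105 lower). Without a filter 1276 of 17990 were called (805 higher and 471 lower), and under DESeq2 781 of 11197 (448 higher and 333 lower). In 1 fit of all 12 libraries 0 were called, and 0 without the batch term. Batch 2 alone gave 1474 of 12103 (929 higher and 545 lower), and leaving out 1 library gave 45 to 1522. For the difference between times 0 of 13122 were called, and 137 of 19564 without a filter (29 higher). Under DESeq2 917 of 13101 were called (305 higher), and leaving out 1 library gave 0 to 440. Library size alone moved the median log2 fold change of all genes from -0.01 to 0.22 at 1 month and from -0.04 to 0.21 for the difference.

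Members called were 0 in each comparison. At 1 week 1 was called under DESeq2 and in 1 fit of all 12 libraries, and 0 to 1 when 1 library was left out. At 1 month 1 was called with library size alone, without a filter and under DESeq2, 2 in batch 2 alone, and 0 to 2 when 1 library was left out. For the difference 1 was called without a filter and under DESeq2, and 0 to 1 when 1 library was left out. These member counts stand beside the counts of all genes given above and are not read as a result about the members. Of 325 values of single members under the alternatives, 300 kept their sign and side of the threshold, 10 turned sign and 15 newly passed. These values are not independent: at 1 month, batch 2 alone and leaving out either batch 3 library are the same comparison. Leaving out 1 library turned the sign of some values that had not passed, with ranges of log2 fold change of -0.51 to 0.35 for Spry2, -1.12 to 0.14 for Dusp6, -0.42 to 0.24 for Il17rd, -0.032 to 0.18 for Sdc4, -0.39 to 0.51 for Phlda1, -0.10 to 1.31 for Fgfr1, -0.25 to 1.10 for Hras1, -1.10 to 0.23 for Mapk3, -0.32 to 0.88 for Sdc1 at 1 week. The ranges were -0.29 to 0.094 for Ier3, -0.16 to 0.37 for Phlda1, -0.24 to 0.60 for Fgf7, -0.044 to 0.24 for Sdc1, -1.12 to 0.12 for Gpc1 at 1 month. The ranges were -0.93 to 0.45 for Fgfr1, -3.25 to 0.26 for Spry4 for the difference between times. With library size alone at 1 month, Fgf1 turned to 0.022 and Ier3 to 0.11. The cause of these changes was not tested. No paired analysis was possible because the labels carry no replicate numbers. Depth limits Dusp6 in the WT libraries of batch 2 (4 and 4 counts), Fgf7 in WT at 1 week (8 to 11 counts) and Spry4 at 1 month (at most 5 counts).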
